A study of Mus musculus with 6 samples.

Results

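Globin and red cell genes were followed in whole testes of 5 days postpartum (dpp) mice as a measure of how much blood each sample carried. The genes were 8, chosen by name: the adult α-globin genes *Hba-a1* and *Hba-a2*, the adult β-globin genes *Hbb-bs* and *Hbb-bt*, *Alas2*, *Slc4a1*, *Epb42* and *Ahsp*. Of these, 7 had a row among the 54532 genes of the expression table, and *Ahsp* was not analysed here. The study removed the splicing factor SRSF1 from germ cells and compared conditional knockout (cKO) with control (Ctrl) testes. The cKO mice carried *Vasa*-Cre, which is active in germ cells, with 1 *Srsf1* allele flanked by *loxP* sites around exons 2 to 4 and 1 deleted allele. The labels name the control genotype only as Ctrl. Each group had 3 samples (Ctrl 1 to 3 and cKO 1 to 3), all of testis at 5 dpp, and p-values measure the spread between these samples.

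Haemoglobin, the oxygen carrier of red cells, is a tetramer of α-like and β-like globin chains, each holding a haem group. Globin transcripts are among the most abundant RNAs of reticulocytes, the young red cells that still carry RNA, and mouse mature red cells have lost their nucleus. Tissue taken without flushing the vessels therefore carries globin RNA from blood. The erythroid enzyme ALAS2 starts haem synthesis in red cell precursors, band 3 (encoded by *Slc4a1*) exchanges anions across the red cell membrane, and protein 4.2 (encoded by *Epb42*) joins band 3 to the membrane skeleton.

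The 2 genes of each globin pair are nearly the same in sequence, which bears on how reads were shared between them. The coding sequences of *Hba-a1* and *Hba-a2*, of 429 bases each, differed at 1 base, C381T, and those of *Hbb-bs* and *Hbb-bt*, of 444 bases each, differed at 1 base, C417T. Positions are counted from 1 at the first base of the start codon, with the base of the first gene of the pair written first, and both lie in exon 3. The windows around these bases are shown 5′ to 3′ on the coding strand, with the differing base in capitals, at chr11:32284316-32284370, chr11:32297133-32297187, chr7:103826665-103826719 and chr7:103812656-103812710 (mm10).
Hba-a1: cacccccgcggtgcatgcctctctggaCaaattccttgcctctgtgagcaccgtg
Hba-a2: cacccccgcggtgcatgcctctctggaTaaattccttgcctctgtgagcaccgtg
Hbb-bs: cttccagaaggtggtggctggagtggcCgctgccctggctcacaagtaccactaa
Hbb-bt: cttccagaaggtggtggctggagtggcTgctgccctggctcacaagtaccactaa
Of all 150-base stretches of the main transcript, 48.4% of those of *Hba-a1* and 65.7% of those of *Hba-a2* were found unchanged in the partner, as were 58.7% of those of *Hbb-bs* and 50.7% of those of *Hbb-bt*. A read that lies in such a stretch does not by itself tell the genes of a pair apart, although its mate may. How reads that match both genes were counted is not given in the sources used here, so the value of each single globin gene is uncertain.

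The promoters of 4 of the genes are shown: *Hba-a1*, *Hbb-bs* and *Hbb-bt*, which had the most reads, and *Alas2*, which is not a globin gene. Each is the 250 bases before the RefSeq start site (GRCm38.p6), 5′ to 3′ on the gene's strand, with every match on either strand to 1 of 4 motifs in capitals. The motifs were AGATAA or TGATAA (the GATA factor motif), CACCC (bound by KLF1 in erythroid cells), CCAAT and TATAA. The windows are chr11:32283422-32283671 (+ strand), chr7:103827929-103828178 (− strand), chr7:103813924-103814173 (− strand) and chrX:150547167-150547416 (+ strand).
Hba-a1: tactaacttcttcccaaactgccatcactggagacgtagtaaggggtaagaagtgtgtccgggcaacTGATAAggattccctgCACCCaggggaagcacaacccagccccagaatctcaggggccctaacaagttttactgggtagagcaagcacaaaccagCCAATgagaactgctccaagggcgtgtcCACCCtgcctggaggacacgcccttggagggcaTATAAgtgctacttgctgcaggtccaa
Hbb-bs: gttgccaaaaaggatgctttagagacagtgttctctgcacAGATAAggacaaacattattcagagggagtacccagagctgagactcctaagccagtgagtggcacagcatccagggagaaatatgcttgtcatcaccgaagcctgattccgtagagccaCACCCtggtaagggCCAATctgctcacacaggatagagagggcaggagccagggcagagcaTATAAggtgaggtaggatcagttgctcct
Hbb-bt: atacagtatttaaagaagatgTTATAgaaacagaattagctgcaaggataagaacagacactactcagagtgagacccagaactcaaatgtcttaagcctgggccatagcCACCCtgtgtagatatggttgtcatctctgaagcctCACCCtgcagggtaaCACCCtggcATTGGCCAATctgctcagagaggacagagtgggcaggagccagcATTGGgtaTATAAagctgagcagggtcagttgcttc
Alas2: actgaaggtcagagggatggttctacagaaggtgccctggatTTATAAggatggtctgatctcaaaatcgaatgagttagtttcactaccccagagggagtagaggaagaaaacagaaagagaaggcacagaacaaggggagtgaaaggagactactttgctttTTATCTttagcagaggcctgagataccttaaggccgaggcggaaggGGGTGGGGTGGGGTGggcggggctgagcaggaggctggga
A promoter entry was present for 6 of the 7 genes, all but *Slc4a1*. The GATA motif was in 5 of these 6 windows and in 16.6% of all 32851 promoters, CACCC in 5 and 52.0%, CCAAT in 4 and 33.9%, and TATAA in 6 and 22.8%. These are descriptions of the windows, since a match is not a measured site. The 300-base promoter windows of *Hba-a1* and *Hba-a2* shared an identical run of 297 bases, whereas the longest run shared by *Hbb-bs* and *Hbb-bt* was 14 bases.

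Expression was given as FPKM, fragments scaled by gene length and by a size of the library, from libraries that held 15448191 to 18964743 recovered reads. The ratio of recovered reads to that size ran from 0.982 in cKO 1 to 1.02 in cKO 3. *Srsf1* stood at 82.1, 89.1 and 88.4 FPKM in Ctrl 1 to 3 and at 45.1, 46.3 and 51.6 FPKM in cKO 1 to 3, so that all cKO samples lay below all Ctrl samples, as their labels say. The germ cell markers summed to 133 to 323 FPKM in Ctrl and to 33.1 to 67.7 FPKM in cKO, with Ctrl 2 the highest. Sertoli and Leydig cell markers were present in every sample, at sums of at least 1054 and 647 FPKM. The extraction note in the labels names retinas, but 9 photoreceptor markers together reached 0.416 to 0.983 FPKM, and *Crx* and *Nrl* were at 0 in all samples. In whole testes, fewer cells of a type and less RNA per cell cannot be told apart.

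The α-globin gene *Hba-a1* (ENSMUSG00000069919, chr11:32283511-32284465, + strand, 3 exons) was the main α-globin row. It stood at 193, 181 and 299.999 FPKM in Ctrl 1 to 3, and at 308, 236 and 523 FPKM in cKO 1 to 3. cKO 1 and cKO 3 lay above all Ctrl samples, while cKO 2 lay within the Ctrl range, so the groups overlapped. The means were 225 ± 65.4 and 356 ± 149 FPKM (SD, n = 3 each). The log2 fold change was 0.62 on the log2(FPKM + 1) scale (SE 0.31, 95% interval −0.12 to 1.35), with an adjusted p of 0.393 in limma.

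*Hba-a2* (ENSMUSG00000069917, chr11:32296489-32297298, + strand, 3 exons), its partner, had far fewer assigned reads. It stood at 11.02, 16.9 and 21.1 FPKM in Ctrl 1 to 3, and at 51.6, 10.3 and 38.7 FPKM in cKO 1 to 3. Here cKO 2 was the lowest of all samples, cKO 1 the highest, and the groups overlapped. The means were 16.3 ± 5.08 and 33.6 ± 21.1 FPKM, and the log2 fold change was 0.77 (SE 0.55, 95% interval −0.51 to 2.06, adjusted p = 0.523 in limma).

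The β-globin gene *Hbb-bs* (ENSMUSG00000052305, chr7:103826534-103828096, − strand, 3 exons) had the highest level of the 7 genes. It stood at 199, 253 and 322 FPKM in Ctrl 1 to 3, and at 387, 229 and 763 FPKM in cKO 1 to 3. As for *Hba-a1*, cKO 1 and cKO 3 exceeded all Ctrl samples and cKO 2 lay among them. The log2 fold change was 0.69 (SE 0.41, 95% interval −0.28 to 1.65, adjusted p = 0.458 in limma), between means of 258 ± 61.7 and 459.7 ± 274 FPKM.

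*Hbb-bt* (ENSMUSG00000073940, chr7:103812524-103813996, − strand, 3 exons), the second adult β-globin gene, had the largest fold change of the 5 genes tested. It stood at 31.6, 31.0 and 48.3 FPKM in Ctrl 1 to 3, and at 81.2, 45.7 and 142 FPKM in cKO 1 to 3. cKO 2 lay below Ctrl 3, so the groups overlapped here too. The means were 37.0 ± 9.79 and 89.6 ± 48.7 FPKM, the log2 fold change was 1.14 (SE 0.38, 95% interval 0.23 to 2.04), and the limma p was 0.0204 before and 0.238 after adjustment over all genes.

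*Alas2* (ENSMUSG00000025270, chrX:150547375-150570638, + strand, 11 exons) is not a globin gene, and its sequence is not shared with one. It stood at 3.42, 4.68 and 5.95 FPKM in Ctrl 1 to 3, and at 8.17, 4.14 and 13.3 FPKM in cKO 1 to 3, the same order of samples within cKO as the β-globins. The groups overlapped through cKO 2, and the log2 fold change was 0.65 (SE 0.36, 95% interval −0.19 to 1.49, adjusted p = 0.423 in limma). The row overlaps *Apex2* on the other strand, which shared 8.63% of the 150-base stretches of *Alas2* and stood at 1.33 to 2.08 FPKM.

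Both membrane genes fell under the filter of 0.5 FPKM and were not in the main fit. *Slc4a1* (ENSMUSG00000006574, chr11:102348824-102366203, − strand, 20 exons) had 11, 16 and 9 reads in Ctrl 1 to 3 and 24, 6 and 18 reads in cKO 1 to 3, or 0.0735 to 0.312 FPKM over all samples. In FPKM, cKO 1 was highest, cKO 3 next and cKO 2 lowest of all samples, as for *Hba-a2* but not for the other tested genes. *Epb42* (ENSMUSG00000023216, chr2:121017891-121037072, − strand, 13 exons) had 2, 3 and 0 reads in Ctrl 1 to 3 and 5, 1 and 1 reads in cKO 1 to 3, so that no fold change is given for it. The mean FPKM of *Slc4a1* in cKO was 1.48 times that in Ctrl, with overlapping groups. In the fit without the filter, *Slc4a1* had a log2 fold change of 0.078 (adjusted p = 0.717 in limma). At this level a fold change on the log2(FPKM + 1) scale is drawn towards 0. *Epb42* was not called in that fit either (adjusted p = 0.865 in limma).

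**Figure D1:**
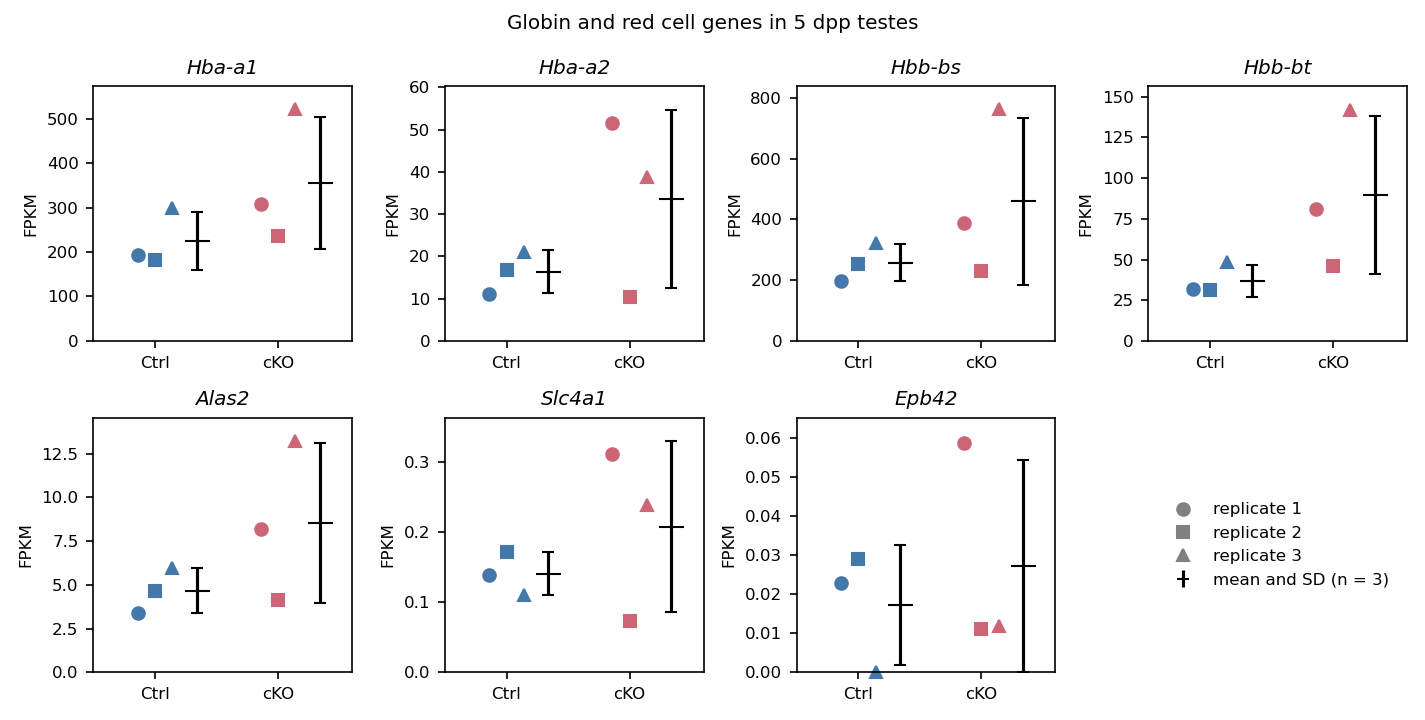
FPKM of the 7 globin and red cell genes in each sample, 1 panel per gene with its own axis from 0, Ctrl in blue and cKO in red. Symbols mark the replicate number and the black bars the mean and SD of 3 samples. cKO 1 and cKO 3 lie above all Ctrl samples in the panels of the 5 tested genes, and cKO 2 lies among or below the Ctrl samples.

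None of the 5 tested genes passed an adjusted p of 0.05 in limma, and neither did any of the 16206 genes tested, which makes the share called 0% higher and 0% lower. The deleted gene *Srsf1* (adjusted p = 0.0578 in limma) and the germ cell marker *Dazl* (0.101) were not called either. A share of 0% is thus not an absence of change. The paper, with DESeq2 on counts, called genes in both directions. At an unadjusted p under 0.05, 1 of the 5 (*Hbb-bt*) was higher in cKO, against 6.6% of all genes, and 0 were lower, against 9.31%. With voom on the recovered reads, 19 genes were called higher and 60 lower, none of them among the 5. The groups did not overlap for 0 of the 5, whereas 10.3% of all genes were higher and 12.8% lower without overlap. The median log2 fold change was 0.69 over the 5 genes and 0.0027 over all genes.

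**Figure D2:**
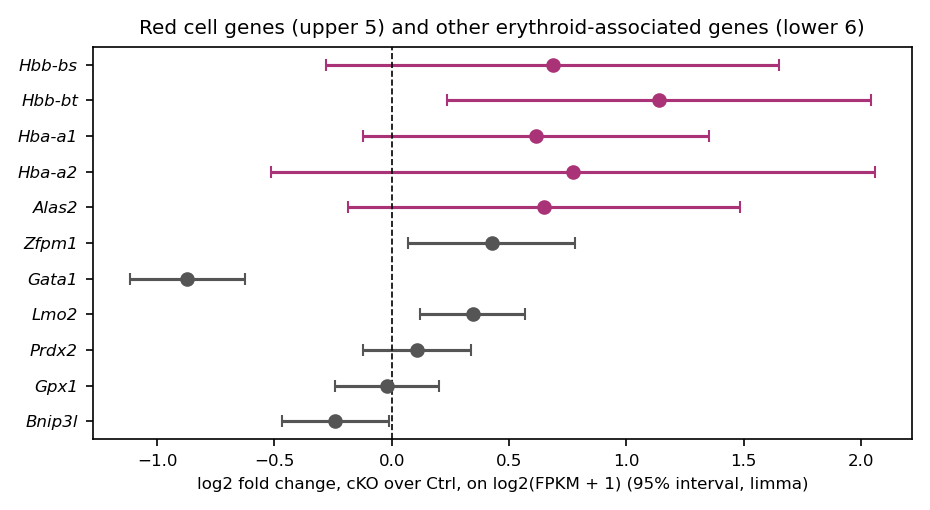
Log2 fold change of cKO over Ctrl on the log2(FPKM + 1) scale with 95% intervals from limma, for the 5 tested globin and red cell genes (purple) and, for comparison, the 3 most abundant genes each of the erythroid transcription factor and red cell enzyme lists (grey). The purple intervals are wide and all but that of *Hbb-bt* include 0, while *Gata1* lies at −0.87.

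The summed level of the 4 adult globins gave 1 value per sample. It was 434, 482 and 691 FPKM in Ctrl 1 to 3, and 828, 521 and 1466 FPKM in cKO 1 to 3. cKO 3 thus carried 274% of the Ctrl mean and cKO 1 155%, while cKO 2, at 97.3%, was near the Ctrl mean and Ctrl 3 was at 129%. The groups overlapped, at means of 536 ± 137 and 939 ± 482 FPKM. Within cKO the highest sample exceeded the lowest 2.81-fold, against 1.59-fold within Ctrl. For the 5 tested genes one by one, this spread was 2.21- to 5.00-fold within cKO and 1.56- to 1.92-fold within Ctrl. An exact permutation test of 3 against 3 samples cannot reach a two-sided p below 0.10. Globin reads made up 0.0341% to 0.0542% of all reads in Ctrl and 0.0410% to 0.111% in cKO. Without cKO 3, the ratio of the means was 0.33 on the log2 scale, against 0.81 with all samples, and without cKO 2 it was 1.10.

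The levels followed the same order in nearly all samples. Over all 6 samples, the mean was 359 FPKM for *Hbb-bs*, 290.2 for *Hba-a1*, 63.3 for *Hbb-bt*, 24.95 for *Hba-a2*, 6.60 for *Alas2*, 0.174 for *Slc4a1* and 0.0223 for *Epb42*. *Hbb-bs* was above *Hba-a1* in 5 of 6 samples, with cKO 2 the exception, and their ranges overlapped, whereas every other neighbouring pair kept its order in 6 of 6.

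Some ratios among the genes varied less than the levels and 1 did not. The ratio of α-globin to β-globin FPKM was 0.887, 0.698 and 0.868 in Ctrl and 0.768, 0.897 and 0.621 in cKO, and the groups overlapped. The summed globins exceeded *Alas2* 103- to 127-fold in Ctrl and 101- to 126-fold in cKO. The ratio of *Hba-a1* to *Hba-a2*, in contrast, ran from 5.96 in cKO 1 to 22.9 in cKO 2, a 3.84-fold range, and the groups overlapped.

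The share of *Hbb-bt* in the β-globin FPKM was the 1 ratio that separated the groups, and it was picked out after its values were seen. It was 13.7%, 10.9% and 13.0% in Ctrl 1 to 3, and 17.3%, 16.6% and 15.7% in cKO 1 to 3. All cKO samples lay above all Ctrl samples, cKO 2 included, at means of 12.6 ± 1.47% and 16.6 ± 0.821%. As a share of the reads of both genes, the highest Ctrl value was 12.7% (95% Wilson interval 11.6% to 14.01%) and the lowest cKO value 14.6% (13.9% to 15.2%), intervals that overlap slightly and cover counting error only. The share of *Hba-a2* in the α-globin FPKM ranged from 5.40% to 8.50% in Ctrl and from 4.19% to 14.4% in cKO, without separating the groups. The part of read assignment between the near-identical genes in these shares was not tested.

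**Figure D3:**
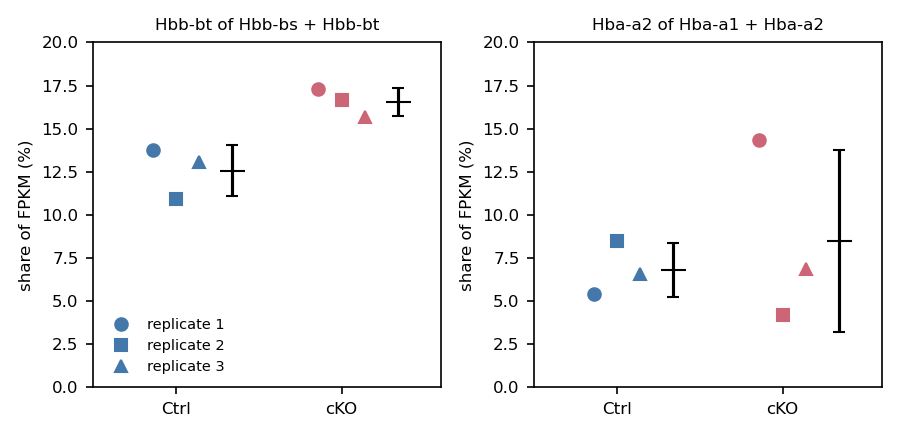
Share of *Hbb-bt* in the FPKM of both β-globin genes (left) and of *Hba-a2* in that of both α-globin genes (right), in percent, for each sample, with the mean and SD of 3 samples. The β-globin shares are 10.9% to 13.7% in Ctrl and 15.7% to 17.3% in cKO, while the α-globin shares overlap.

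Other genes of the erythroid programme and 3 globins outside red cells were read from 7 lists of 63 genes in all, of which 38 were tested. None passed the adjusted threshold in limma. At an unadjusted p under 0.05, 5 were higher and 4 lower in cKO, where the shares over all genes were 6.6% and 9.31%. Without overlap 10 were higher (26.3%, against 10.3% of all genes) and 8 lower (21.1%, against 12.8%), with a median log2 fold change of 0.038. The embryonic and other globin genes of the same clusters numbered 7, none tested, and *Hba-x*, *Hbb-bh0* and *Hbb-bh1* were at 0 in all samples. They summed to 0.362 to 0.457 FPKM in Ctrl and 0.413 to 1.12 FPKM in cKO.

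Among the globins outside red cells, *Cygb* (cytoglobin) stood at 33.8 and 41.3 FPKM on average in Ctrl and cKO (log2 fold change 0.28, adjusted p = 0.324 in limma) and *Mb* (myoglobin) at 0.566 and 1.11 FPKM (0.42, adjusted p = 0.281 in limma). The 8 haem synthesis genes, which all cells use, had 4 higher and 4 lower means. *Alad* stood at 73.0 ± 29.6 and 60.7 ± 11.2 FPKM, *Urod* at 24.7 and 24.8 FPKM and *Fech*, which inserts iron into the ring, at 23.5 and 25.1 FPKM. *Cpox*, chosen after its values were seen, stood at 3.64, 3.32 and 4.04 FPKM in Ctrl 1 to 3 and at 4.56 and 5.14 FPKM in cKO 1 and cKO 3, with cKO 2 just below Ctrl 3 (adjusted p = 0.336 in limma), which is the order of samples of *Hba-a1*. *Alad* was highest in Ctrl 3 instead.

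Of the 16 red cell membrane genes 7 were tested, and *Gypc* (glycophorin C) stood at 7.18 and 9.06 FPKM (log2 fold change 0.29, adjusted p = 0.305 in limma), *Epb41* at 5.48 and 5.54 FPKM and *Aqp1* at 4.58 and 5.59 FPKM. Of the 10 genes listed as erythroid transcription factors 8 were tested, and 1 of these, *Tspan33*, encodes a tetraspanin and not a transcription factor. *Gata1*, which Sertoli cells also express, stood at 4.64, 5.21 and 4.23 FPKM in Ctrl 1 to 3 and at 2.24, 2.09 and 1.99 FPKM in cKO 1 to 3. All its cKO values lay below all Ctrl values, the opposite direction to the globins, with a log2 fold change of −0.87 (SE 0.10, adjusted p = 0.0615 in limma, the smallest of the 38). *Zfpm1*, a GATA1 partner, stood at 24.4 and 32.8 FPKM (adjusted p = 0.259) and *Lmo2* at 2.92 and 3.99 FPKM (adjusted p = 0.174).

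For iron uptake, *Tfrc* (the transferrin receptor) stood at 16.7 and 13.8 FPKM, *Slc11a2* at 11.9 and 12.1 FPKM and *Steap3* at 8.65 and 8.98 FPKM, with 5 of 7 genes tested. Of 12 red cell enzyme and maturation genes 8 were tested, and *Prdx2* stood at 138 and 149 FPKM, *Gpx1* at 105 and 104 FPKM and *Bnip3l* at 52.0 and 43.9 FPKM (log2 fold change −0.24, adjusted p = 0.301 in limma). These genes are used by many cell types.

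Markers of other blood and vessel cells were set beside the globin sum. Platelet markers summed to 10.4, 16.2 and 17.3 FPKM in Ctrl 1 to 3 and to 12.1, 15.9 and 12.2 FPKM in cKO 1 to 3, with 2 of 8 tested and *Gp1bb* at 0 in all samples. Most of the platelet sum was *Pf4*, at means of 13.3 FPKM in Ctrl and 11.9 FPKM in cKO. The sum thus followed that gene, and it did not peak in cKO 3. The other tested platelet marker, *Itga2b*, stood at 0.578, 0.501 and 0.564 FPKM in Ctrl 1 to 3. Its cKO values were all higher, at 0.676, 0.593 and 0.629 FPKM in cKO 1 to 3. Neutrophil markers summed to 6.77, 5.74 and 31.8 FPKM in Ctrl and 23.0, 22.7 and 25.5 FPKM in cKO, so that Ctrl 3 was the highest sample of all. Of the 4 tested, *S100a8* had means of 3.99 and 8.76 FPKM, *S100a9* 7.41 and 11.7 FPKM, *Ngp* 1.23 and 1.14 FPKM and *Camp* 1.41 and 0.840 FPKM in Ctrl and cKO, and none was called. Lymphocyte markers summed to 3.06 to 3.28 FPKM in Ctrl and 3.09 to 5.15 FPKM in cKO, and macrophage markers to 96.0 to 135 and 114 to 187 FPKM.

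Endothelial markers summed to 66.7 to 75.3 FPKM in Ctrl and 85.0 to 95.6 FPKM in cKO, without overlap. Of 9 tested, 8 had higher means in cKO and 4 were higher without overlap, against 10.3% of all genes. *Cldn5*, of endothelial tight junctions, stood at 11.5 and 16.9 FPKM (log2 fold change 0.53, adjusted p = 0.107 in limma) and *Pecam1* at 5.75 and 7.86 FPKM (0.39, adjusted p = 0.144 in limma). The endothelial sum was 92.7, 85.0 and 95.6 FPKM in cKO 1 to 3, the same order within cKO as the summed globins. cKO 2 was above all Ctrl samples in the endothelial sum, unlike its globin level. Leydig cell markers summed to 647 to 840 FPKM in Ctrl and 878 to 986 FPKM in cKO, also without overlap. Of 8 tested, 7 had higher means in cKO and 4 were higher without overlap, so the rise was not particular to endothelial markers. The part of vessel content or of the other cell types in the globin values was not tested.

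**Figure D4:**
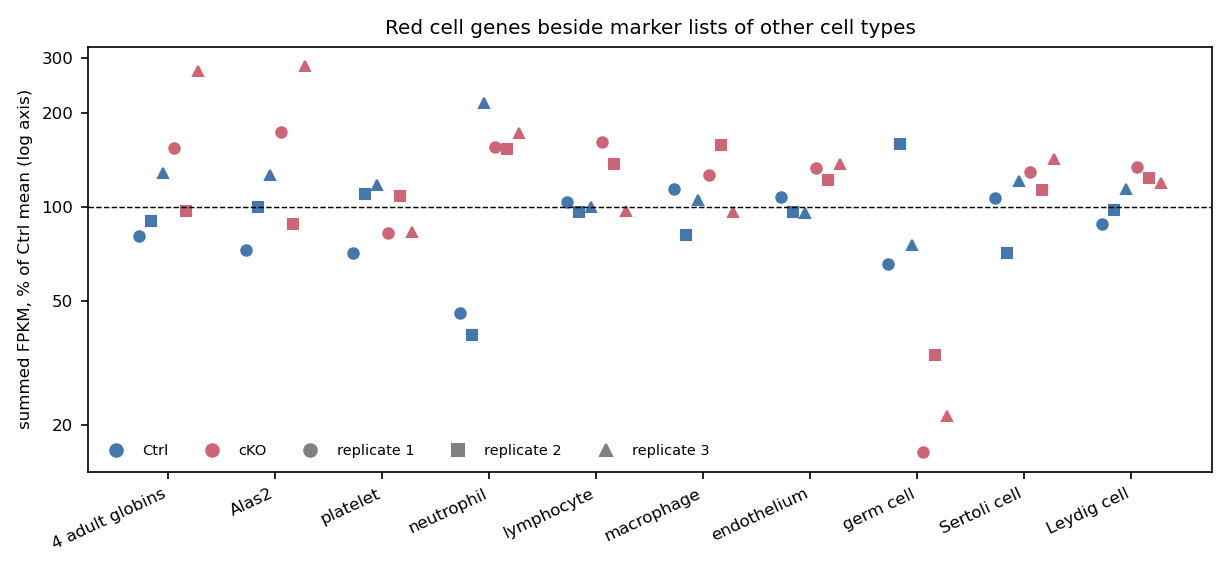
Summed FPKM of the 4 adult globins, *Alas2* and 8 marker lists as percent of the Ctrl mean (log axis, dashed line at 100%), with Ctrl in blue, cKO in red and 1 symbol per replicate number. The globins reach 155% and 274% in cKO 1 and cKO 3 and 97.3% in cKO 2. Endothelial and Leydig cell markers are above all Ctrl samples in each cKO sample, and germ cell markers are below all Ctrl samples in each.

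The genes with the profile most like the mean of the 4 globins were sought among 14004 others with a mean of at least 1 FPKM, by the root mean square difference of centred log2(FPKM + 1) over 6 samples. They were the processed pseudogene *BC002163* (0.253), *Bpifa6* (0.262), *Mir6960* (0.269), *Fxyd7* (0.294) and *Tnnc1* (0.311). Distances of the members varied. *Alas2*, which did not enter the profile, was closer than all of these, at 0.116. *Slc4a1* (0.582) and *Epb42* (0.644), also outside the profile and under 1 FPKM, were farther than all of them. At so low a level log2(FPKM + 1) hardly varies between samples. Their distances therefore cannot show whether their patterns are like that of the globins. Of the globins that made the profile, *Hbb-bs* was at 0.151, *Hbb-bt* at 0.198 and *Hba-a1* at 0.232. *Hba-a2*, at 0.375, was farther than *Tnnc1*. *Fxyd7*, the most abundant of the 5, stood at 10.4, 8.34 and 14.3 FPKM in Ctrl 1 to 3 and at 15.4, 10.7 and 21.7 FPKM in cKO 1 to 3.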

How the data were processed

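RNA from 6 whole testes was sequenced after poly(A) selection, per the study's methods. The authors aligned reads to mm10 with HISAT2 2.0.5, counted them with featureCounts and deposited FPKM per gene; the annotation release is not given in the sources used here. The deposited values were whole multiples of 1 read (tolerance 0.01), from which reads per gene were recovered. A floor of 3 reads is 0.158 to 0.194 FPKM for a gene of 1 kilobase. Genes that averaged 0.5 FPKM or more over the 6 samples were compared as log2(FPKM + 1) with limma 3.58.1 (trend) in R 4.3.3, with Benjamini-Hochberg adjustment over all genes. The fit was tested on simulated data. Alternatives were a pseudocount of 0.1, other filters, TPM, quantile normalization, library totals, voom, no trend, a replicate block, protein-coding genes only, and leaving out each sample. Library totals were added after seeing the data. All expression columns were mapped to a sample.

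The members and lists were chosen with earlier results of these data known. Named were the members, *Srsf1*, and the 3 genes of highest mean per pathway list. *Cpox*, the neutrophil genes, *Cldn5*, *Pecam1* and the *Hbb-bt* share fall outside that rule and were picked after their values were seen. Promoters are from RefSeq (GRCm38.p6).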

Additional observations from a re-analysis of the deposited data

How the results depend on the processing

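None of the 5 tested globin and red cell genes was called in any alternative, and all kept a positive log2 fold change. Their median log2 fold change, 0.69, ranged from 0.30 (without cKO 3) to 1.10 (without cKO 2). The log2 ratio of the summed globins, 0.81, was 0.79 with TPM and 0.80 with library totals. Counts over all genes moved more: against 0 higher and 0 lower, TPM gave 4 and 1, no trend gave 1 higher, protein-coding genes only gave 37 and 176, and voom gave 19 and 60. Leaving out each sample gave 0 to 3 higher and 0 to 15 lower, the latter without Ctrl 2. With the replicate block in limma, 14 genes were higher and 84 lower, and the adjusted p of *Hba-a1* was 0.118 and of *Hbb-bt* 0.112. The SE of *Hba-a1* was 0.11 with the block and 0.31 without it. Over all tested genes, same-numbered samples correlated at 0.066, 0.016 and 0.088 after the group means were removed. Samples of unlike number were not compared, so whether the numbers pair the samples was not tested. *Srsf1*, at an adjusted p of 0.0578 in the main limma fit, passed the threshold with TPM (adjusted p = 0.0362), the block (0.0326), protein-coding genes only (0.0160) and voom (0.0222). The cause of these moves was not tested. With 3 samples a group, intervals for the globins span more than 1 log2 unit, and the reads of *Slc4a1* and *Epb42* are too few to show a difference.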
